A study of Mus musculus with 386 samples.

Results

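The neuropeptide genes described here are Npy, Sst, Cck, Penk, Pdyn, Tac1, Vip, Avp, Oxt and Pmch, 10 genes chosen by name. Each was to be read from a transcript cluster (the probe set of an array for 1 gene) that carried its symbol alone. Of the 10 genes, 9 had such a cluster, among 18820 genes measured in all, and each of the 9 had 1 cluster only. Both clusters that name Pmch, the precursor of melanin-concentrating hormone, also name Parpbp, so no value is given for Pmch.

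RNA of mice aged 23 days was hybridised to Affymetrix Mouse Gene 1.1 ST arrays, 85 for brain, 102 for kidney, 98 for lung and 101 for liver (386 in all, from 111 animals, each array a separate animal within its tissue). F1 animals came from the 6 crosses CASTxPWK, PWKxCAST, CASTxWSB, WSBxCAST, PWKxWSB and WSBxPWK, dam named first, and the inbred animals from CAST, PWK and WSB. All were bred from founders that had left The Jackson Laboratory fewer than 6 generations before, both sexes were sampled in every cross, and RNA came from powdered whole tissue. These strains are wild-derived and stand for 3 subspecies of the house mouse, so they differ at many more sites than classical laboratory strains. Levels are log2 signals, in which a difference of 1 is a doubling.

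Neuropeptides are short signalling peptides that neurons cut from larger precursor proteins, store in dense-core granules and release beside a fast transmitter, and most act through G protein-coupled receptors. Their genes are strong markers of cell groups. Penk (enkephalins) marks striatal neurons of the indirect pathway, and Tac1 (substance P) and Pdyn (dynorphins) mark those of the direct pathway. Sst (somatostatin), Npy (neuropeptide Y) and Vip (vasoactive intestinal peptide) mark classes of cortical interneuron. Cck (cholecystokinin) is made by many cortical and hippocampal neurons, and Avp (vasopressin) and Oxt (oxytocin) by large hypothalamic neurons that send axons to the pituitary. Avp and Oxt are neighbours on chromosome 2, copied towards each other.

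Promoters were matched for 8 of the 9 measured genes, all except Penk, in RefSeq's annotation of GRCm38.p6, as the 250 bases before and the 50 after a gene's start. Of these, 5 are printed, chosen from the expression results below. The part of their sequences in those results was not tested. Avp and Oxt moved together between brain arrays, as did Npy and Sst, and Cck differed between strains in both brain and kidney. Each is given 5′ to 3′ on the gene's own strand. Capitals mark a cAMP response element (TGACGTCA), its half-site (TGACG, searched on both strands, so that the minus strand reads CGTCA, and contained in the full element) or an E-box (CACGTG), and a sequence with no capitals held none of these letters.
Npy, chr6:49822460-49822759, plus strand: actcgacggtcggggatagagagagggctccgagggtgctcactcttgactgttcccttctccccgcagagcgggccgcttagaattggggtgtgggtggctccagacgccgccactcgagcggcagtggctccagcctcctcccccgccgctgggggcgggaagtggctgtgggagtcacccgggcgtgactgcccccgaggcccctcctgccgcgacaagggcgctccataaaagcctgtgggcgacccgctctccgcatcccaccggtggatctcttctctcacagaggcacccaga
Sst, chr16:23890795-23891094, minus strand: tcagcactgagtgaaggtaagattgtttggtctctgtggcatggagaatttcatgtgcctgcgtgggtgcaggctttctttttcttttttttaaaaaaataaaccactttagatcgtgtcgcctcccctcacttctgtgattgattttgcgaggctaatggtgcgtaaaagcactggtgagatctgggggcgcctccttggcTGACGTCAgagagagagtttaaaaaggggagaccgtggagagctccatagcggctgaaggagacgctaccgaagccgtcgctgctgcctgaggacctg
Cck, chr9:121495645-121495944, minus strand: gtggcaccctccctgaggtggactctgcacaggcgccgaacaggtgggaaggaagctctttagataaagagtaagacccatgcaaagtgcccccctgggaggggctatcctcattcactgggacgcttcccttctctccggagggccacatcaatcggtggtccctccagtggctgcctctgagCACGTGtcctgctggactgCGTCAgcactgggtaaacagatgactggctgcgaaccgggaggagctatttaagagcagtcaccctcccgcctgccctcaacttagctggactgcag
Avp, chr2:130582539-130582838, minus strand: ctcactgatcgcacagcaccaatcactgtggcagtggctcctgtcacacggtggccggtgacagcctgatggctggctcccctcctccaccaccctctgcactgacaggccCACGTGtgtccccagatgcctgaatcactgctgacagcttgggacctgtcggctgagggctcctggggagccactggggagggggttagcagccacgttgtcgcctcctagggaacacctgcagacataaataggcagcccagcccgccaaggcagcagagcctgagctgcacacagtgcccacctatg
Oxt, chr2:130575919-130576218, plus strand: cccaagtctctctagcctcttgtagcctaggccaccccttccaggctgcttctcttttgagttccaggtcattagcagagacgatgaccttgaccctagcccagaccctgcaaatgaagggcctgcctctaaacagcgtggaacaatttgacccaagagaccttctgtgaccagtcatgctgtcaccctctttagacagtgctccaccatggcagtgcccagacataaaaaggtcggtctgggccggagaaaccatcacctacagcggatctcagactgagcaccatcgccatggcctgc

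The full element stood in 1 of the 8 matched genes, Sst, with its first base at -48 from the start. The half-site stood in 4, which were Sst, Cck, Tac1 and Vip, and the E-box in 3, which were Cck, Tac1 and Avp. Of all 32851 promoters of the table, 1.79% held the full element, 20.8% the half-site and 7.15% the E-box. These matches describe letters only, and binding was not measured.

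The brain label was checked against marker lists. A gene was tested in a tissue if its mean level reached the 40th percentile of all genes there (6.37 in brain), which 11292 genes did per tissue. All 9 measured neuron markers lay above that level in brain (Snap25 at 12.97, Syt1 at 12.92), as did 9 of 9 striatal, 10 of 10 cortical and hippocampal and 7 of 7 choroid plexus markers. Of the pituitary markers 0 of 8 did, of the hypothalamic ones 5 of 14 (Hap1 at 10.54, Baiap3 at 8.51), and of the cerebellar ones 3 of 10 (Etv1 at 10.53, Cbln1 at 9.79). The sex genes Xist and Eif2s3y went against the sex label, in part or both, on 2 arrays. In PWKxWSB liver replicate 8, labelled male, both did (Xist at 10.703, Eif2s3y at 4.531). In PWKxCAST brain replicate 9, labelled female, Xist alone did, at 3.983. Its Eif2s3y, at 3.827, lay within the range of female brains. Without this brain array Avp passed the brain test over all crosses (adjusted p = 0.0349), and no other call changed in the brain contrasts it enters. Without the liver array no call changed in the liver contrasts it enters.

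Of the 9 measured genes, 8 reached the test level in brain, and Pdyn, with a mean of 5.95 ± 0.30 (SD, n = 85), did not. Over the 85 brain arrays Penk lay at 12.18, 12.47 and 12.81 log2 (lowest, median and highest), Sst at 11.11, 11.68 and 12.11, and Cck at 10.96, 11.46 and 11.89. Npy lay at 9.62, 10.65 and 11.06 and Tac1 at 8.10, 9.26 and 9.94. Each of these levels was far above the same gene's level in liver, where the medians were 6.04 for Penk, 6.25 for Sst, 5.25 for Cck, 6.49 for Npy and 4.15 for Tac1. Vip lay at 6.20, 6.94 and 7.79, Avp at 6.44, 7.01 and 8.24, Oxt at 5.73, 6.66 and 8.23, and Pdyn at 5.22, 5.93 and 6.85. Each of these last genes had a wide range for its level, and the lowest arrays of Vip and Oxt fell below the test level. Signals of different genes come from different probes and are not ranked against each other. In tissue samples such as these, fewer cells of a type and less RNA per cell cannot be told apart.

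Npy and Sst were the neuropeptide genes with the clearest strain differences in brain. Npy, which in brain drives feeding and dampens excitability, was low in PWK. Its level was 10.32, 10.56 and 10.88 in CAST (n = 8), 9.62, 9.98 and 10.42 in PWK (n = 6) and 10.37, 10.71 and 10.98 in WSB (n = 11). Of the 6 PWK brains, 5 lay below every CAST and every WSB brain, and 1 reached the lower end of both. The difference was 0.64 ± 0.11 (SE) for CAST minus PWK (adjusted p = 1.64e-06) and -0.75 ± 0.10 for PWK minus WSB (adjusted p = 6.64e-09), by limma with Benjamini-Hochberg adjustment over all tested genes. These contrasts weight the sexes equally, and the PWK brains were 4 females and 2 males.

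Sst, whose peptide holds back growth hormone and insulin release, was high in WSB. It lay at 11.15, 11.35 and 11.64 in CAST, at 11.11, 11.44 and 11.85 in PWK and at 11.60, 11.85 and 12.05 in WSB. The ranges touched, with the lowest WSB brain under the highest CAST and PWK brains. Sst was lower in CAST than in WSB by a log2 difference of -0.42 ± 0.08 (adjusted p = 5.73e-06) and lower in PWK than in WSB by -0.43 ± 0.09 (adjusted p = 4.7e-05).

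Penk and Cck differed less. Penk lay at 12.21, 12.36 and 12.51 in CAST, at 12.30, 12.32 and 12.39 in PWK and at 12.46, 12.60 and 12.72 in WSB. All 11 WSB brains lay above all 6 PWK brains, and the WSB and CAST ranges overlapped slightly. The differences were -0.21 ± 0.06 for CAST minus WSB (adjusted p = 0.000948) and -0.27 ± 0.06 for PWK minus WSB (adjusted p = 0.000308). Cck lay at 11.15, 11.46 and 11.57 in CAST, at 11.44, 11.64 and 11.89 in PWK and at 10.96, 11.35 and 11.53 in WSB. It was highest in PWK, with overlapping ranges. The difference was -0.27 ± 0.09 for CAST minus PWK (adjusted p = 0.0127) and 0.39 ± 0.09 for PWK minus WSB (adjusted p = 0.000111). The first of these missed the threshold without CAST brain replicate 2 (adjusted p = 0.0579) or without PWK brain replicate 1 (adjusted p = 0.111).

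Of the 8 tested genes 2 passed for CAST minus PWK, where 40.9% of all tested genes did, 2 for CAST minus WSB (52.4%) and 4 for PWK minus WSB (40.4%). The median difference of the 8 genes was 0.029, -0.096 and -0.208, beside -0.007, 0.002 and 0.016 over all tested genes. Tac1, Vip, Avp and Oxt passed in none of the 3 contrasts. Over all 9 crosses 6 of the 8 genes differed (85.1% of all tested genes), which were Npy, Sst, Cck, Penk, Tac1 (adjusted p = 0.017) and Vip (adjusted p = 0.0255). For Tac1 and Vip this ended when runs of neighbouring animal numbers within a cross were taken as a random block (adjusted p of 0.124 and 0.0921). Vip also missed the threshold without CASTxWSB replicate 1, 4 or 5 (adjusted p between 0.0661 and 0.118), and Tac1 without WSBxPWK replicate 11 (0.05). Avp and Oxt did not pass (adjusted p of 0.0589 and 0.135). Whether sequence differences under the probes contribute to a strain difference was not tested.

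**Figure D1:**
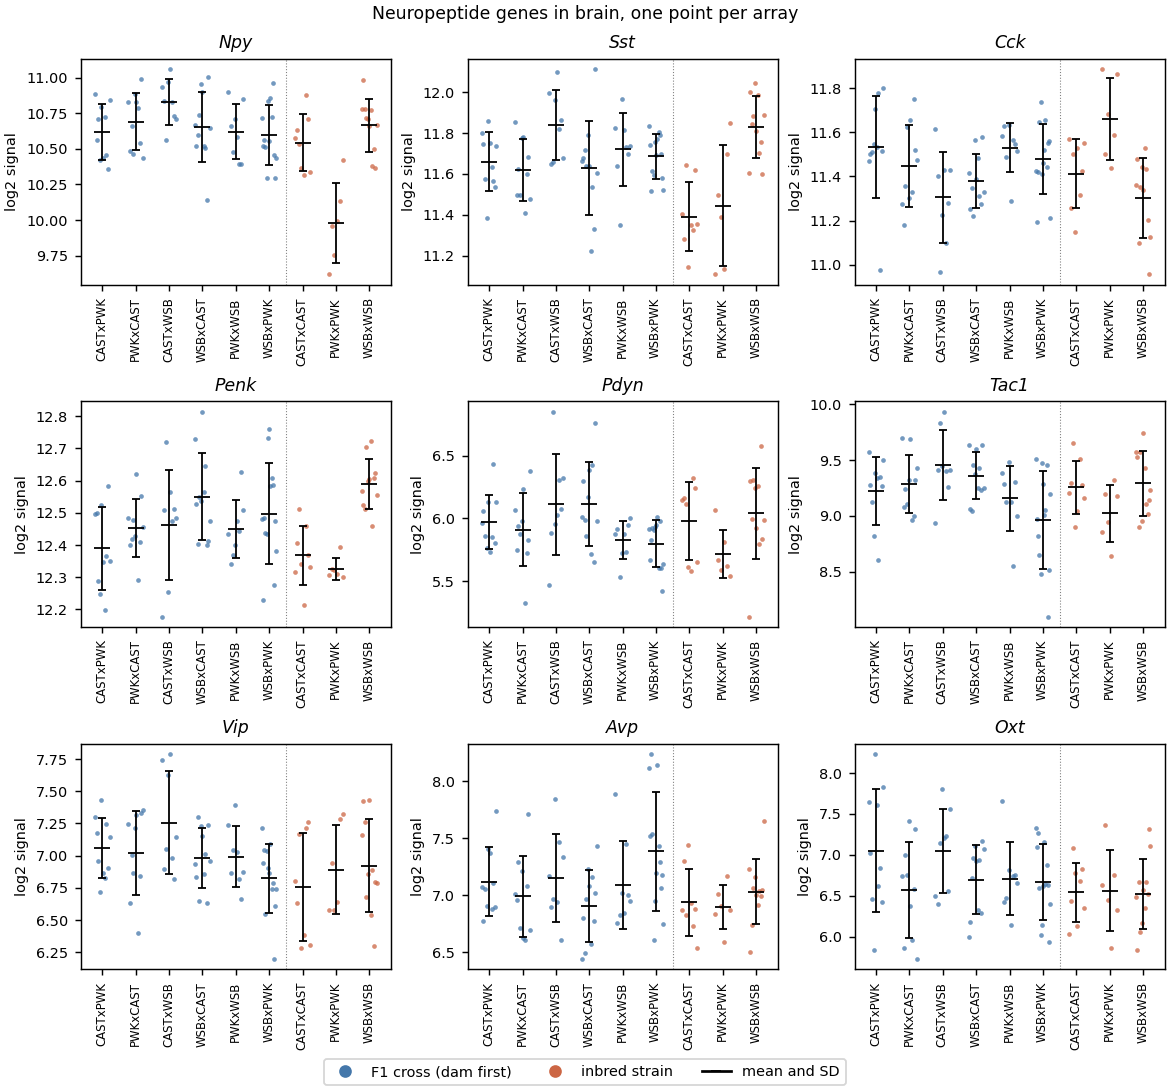
Level of each neuropeptide gene in brain (log2 signal, vertical axis) in the 9 crosses (horizontal axis), with 1 point per array, F1 crosses left of inbred strains, and black lines for mean and SD. Npy sits lowest in PWK, where the mean is 9.98, and Sst averages 11.39 in CAST, 11.45 in PWK and 11.83 in WSB.

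In F1 brains Npy followed the higher parent. It lay at 10.36, 10.64 and 10.89 in CASTxPWK (n = 10) and at 10.44, 10.73 and 10.99 in PWKxCAST (n = 10). All but the highest PWK brain lay below every brain of both F1 crosses. The F1 mean exceeded the mid-parent value, which is the mean of both inbred log2 levels, by 0.42 ± 0.07 (adjusted p = 2.7e-05). With a WSB parent, Npy lay at 10.40, 10.62 and 10.90 in PWKxWSB (n = 8) and at 10.29, 10.56 and 10.97 in WSBxPWK (n = 13), and the F1 mean was above the mid-parent value by 0.33 ± 0.07 (adjusted p = 0.000804). Against the log2 of the mean linear level of both parents, the F1 means were higher by 0.385 and 0.281.

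Sst was also above the mid-parent value in the CAST and PWK crosses, by 0.24 ± 0.06 (adjusted p = 0.00479). It lay at 11.39, 11.69 and 11.86 in CASTxPWK and at 11.41, 11.61 and 11.86 in PWKxCAST, and both F1 medians were above those of CAST and PWK, with ranges that overlapped those of both strains. Vip passed in the CAST and WSB crosses, where the F1 mean was higher by 0.30 ± 0.10 (adjusted p = 0.0123). Vip lay at 6.82, 7.10 and 7.79 in CASTxWSB and at 6.63, 6.96 and 7.30 in WSBxCAST, against 6.29, 6.72 and 7.26 in CAST and 6.30, 6.86 and 7.44 in WSB. These ranges overlapped widely. Of the 8 tested genes 2 exceeded the mid-parent value for CAST and PWK (18.9% of all tested genes differed from it, in either direction), 1 for CAST and WSB (37.1%) and 1 for PWK and WSB (10%). In these 3 contrasts 0 of the 8 genes passed below the mid-parent value.

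No neuropeptide gene passed in brain between reciprocal crosses, which share their autosomal genotype and differ in dam. The counts from limma were 0 of 8 for CASTxPWK minus PWKxCAST, where 0.151% of all tested genes passed, 0 for CASTxWSB minus WSBxCAST (0.779%) and 0 for PWKxWSB minus WSBxPWK (0.248%). At an unadjusted p under 0.05 they were 1, 3 and 0. Females minus males gave 0 of 8 (0.0708% of all tested genes, and 0 at an unadjusted p under 0.05), and the test of sex by cross 0 of 8 (0.708%, and 1 unadjusted). The sex difference with the smallest p was that of Oxt, at 0.20 with an adjusted p of 0.623.

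Oxt, Avp, Tac1 and Vip varied widely between brains of the same cross and sex. The residual SD of Oxt was 0.485, above 99.7% of all tested genes, and that of Avp was 0.349 (99.2%), of Tac1 0.316 (98.7%) and of Vip 0.300 (98.4%). Penk had a residual SD of 0.121, above 34.2% of the tested genes. The highest Oxt brain, at 8.23, and the lowest, at 5.73, lay in the reciprocal crosses CASTxPWK and PWKxCAST.

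To see which genes rose and fell together between brains, each array's deviation from its cross-by-sex mean was correlated over the 85 brain arrays. The permutations kept arrays within cross and sex, and 108 relations were adjusted together (36 gene pairs, and 9 genes against 8 brain region lists that hold none of them). Of the 36 pairs 30 had a positive r and 17 passed, all 17 positive, with a median r of 0.28 over the 36. The share of passing pairs among other tested genes was not computed, so these counts do not set neuropeptide genes apart. Avp and Oxt gave the highest r, 0.670 (Spearman's rho 0.685, adjusted p = 0.000216, r 0.670 without the 2 arrays farthest from the median). Npy and Sst followed with an r of 0.652 (rho 0.689, adjusted p = 0.000216, r 0.623 without 2 arrays). Penk and Tac1 gave an r of 0.595 (rho 0.569, adjusted p = 0.000216, r 0.546 without 2 arrays). The unadjusted p behind each of these was 1e-05, the smallest that the permutations could give. Vip was tied to Sst (r = 0.509), Tac1 (r = 0.492), Npy (r = 0.484) and Oxt (r = 0.469), and Penk to Pdyn (r = 0.443). Each of these had an adjusted p of 0.000687 or less. Among the other passing pairs were Oxt with Npy (r = 0.428, adjusted p = 0.00178) and with Sst (r = 0.417, adjusted p = 0.00244).

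The region lists separated these genes in part. Penk moved with the striatum list (Drd1, Drd2, Adora2a and others), with an r of 0.729 (rho 0.731, adjusted p = 0.000216, r 0.738 without 2 arrays). Tac1 and Pdyn did so with an r of 0.466 and 0.422 (rho 0.469 and 0.464, adjusted p of 0.00072 and 0.00234). Avp and Oxt moved with the hypothalamus list, with an r of 0.567 and 0.552 (rho 0.537 and 0.561, adjusted p of 0.000309 and 0.000216). Npy moved with the olfactory bulb list (r = 0.484, rho 0.425, adjusted p = 0.000831) and Cck with the cortex and hippocampus list (r = 0.337, rho 0.318, adjusted p = 0.0179). Vip moved with the cortical interneuron list (r = 0.315, rho 0.303, adjusted p = 0.0405). Against the hindbrain and spinal cord list the r was -0.375 for Penk, -0.359 for Pdyn and -0.324 for Npy (adjusted p of 0.00778, 0.025 and 0.024). By Spearman's rho Npy missed the threshold there (-0.284, adjusted p = 0.0557). Oxt also passed against the cortex and hippocampus list (r = -0.333, adjusted p = 0.025), and Npy against the cerebellum list (r = -0.270, adjusted p = 0.0496). Avp, like Npy, passed with the olfactory bulb list by Pearson's r (0.287, adjusted p = 0.0496), but not by Spearman's rho (0.276, adjusted p = 0.0641). This list shares Trh with the hypothalamus list, so the relations of Avp with both are not independent. By Pearson's r Sst passed against none of the 8 lists, among them cortical interneurons (r = 0.286, adjusted p = 0.085), striatum (r = 0.189) and hypothalamus (r = 0.082). Npy also missed the threshold with the cortical interneuron list (r = 0.267, adjusted p = 0.0873). Against the cerebellum list Sst had an r of -0.272 (adjusted p = 0.0548) and a rho of -0.318 (adjusted p = 0.0349). How the brain was cut before powdering was not given, and its part in these relations was not tested.

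**Figure D2:**
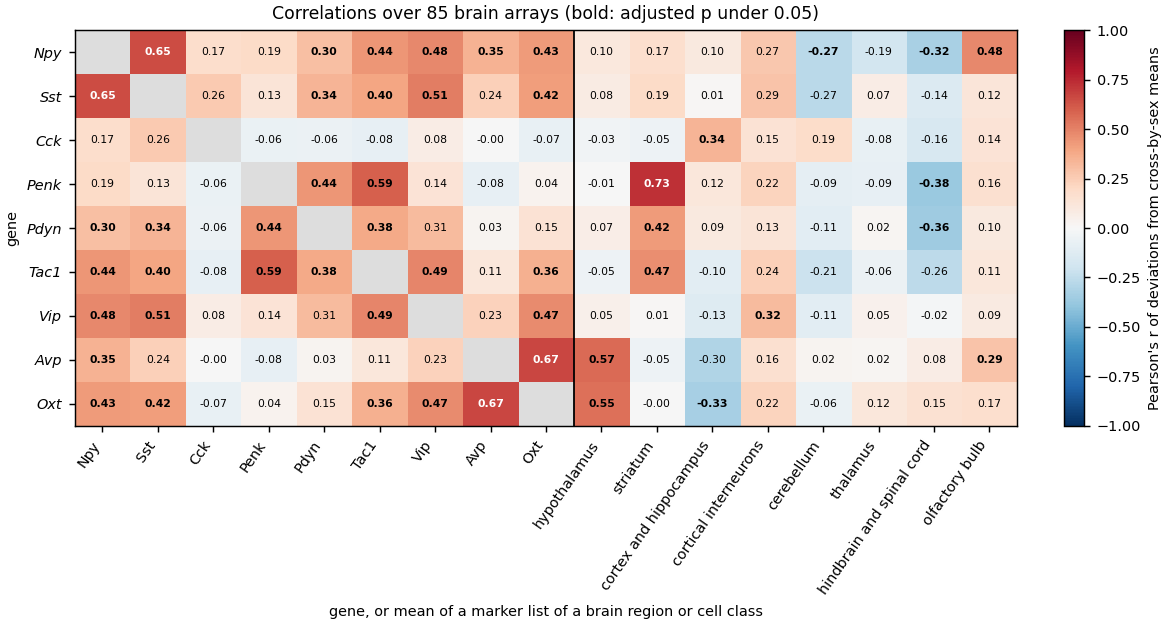
Pearson's r over 85 brain arrays between the neuropeptide genes and of each gene with 8 brain region lists, from deviations from cross-by-sex means, with colour for r and bold type where the adjusted p is under 0.05. The highest values are Penk with the striatum list (0.729), Avp with Oxt (0.670) and Npy with Sst (0.652).

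**Figure D3:**
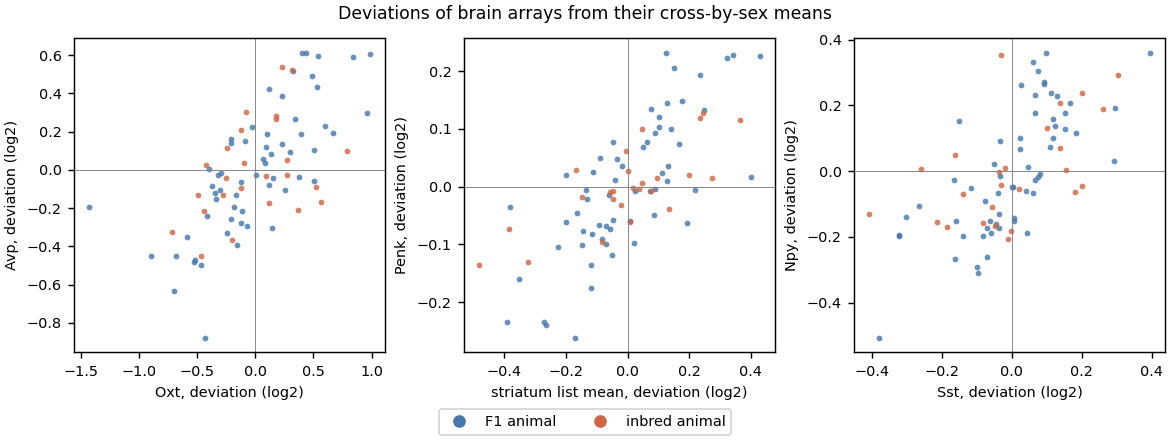
Deviations of single brain arrays from their cross-by-sex means (log2 on both axes, 1 point per array, 85 arrays, coloured by F1 or inbred), for Avp against Oxt, Penk against the striatum list and Npy against Sst. The points spread along a rising line in each panel, with r of 0.670, 0.729 and 0.652.

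Many brain genes shared part of this spread. The first principal component of the deviations of all tested genes held 22.2% of their variance, and its r was 0.705 with Vip, 0.667 with Tac1, 0.579 with Npy, 0.574 with Sst and 0.538 with Oxt, but 0.227 with Avp, 0.156 with Penk, 0.131 with Pdyn and 0.087 with Cck. With this component removed from every gene and list, 5 of the 36 pairs passed. These were Avp with Oxt (r = 0.668), Penk with Tac1 (0.668), Npy with Sst (0.478), Penk with Pdyn (0.431) and Pdyn with Tac1 (0.390). Penk and Tac1 then had an r of 0.758 and 0.721 with the striatum list, and Oxt and Avp of 0.657 and 0.583 with the hypothalamus list. In the 60 F1 brains alone 18 pairs passed, and in the 25 inbred brains alone 0 passed.

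The genes whose deviations were most like those of each neuropeptide gene were taken as the 3 with the highest r over the same 85 arrays. For Penk these were Rarb (0.806), Rgs9 (0.739) and Sh3rf2 (0.726), and for Tac1 Kcnab1 (0.776), Rarb (0.739) and Rgs2 (0.735). For Pdyn they were Spata2l (0.525), Chrm4 (0.514) and Ppp1r1b (0.489). Rgs9 and Ppp1r1b belong to the striatum list, and Trh, named next, to the hypothalamus and olfactory bulb lists. For Oxt they were Gal (0.682), Avp (0.670) and Minar2 (0.658), and for Avp Oxt, Gpx3 (0.542) and Trh (0.530), so that each of this pair was among the nearest genes of the other. For Npy they were Pradc1 (0.720), Selenow (0.706) and Pebp1 (0.683), for Sst Ap2s1 (0.789), Tmem9 (0.778) and 1110008P14Rik (0.771), for Vip Triap1 (0.744), Rabggtb (0.733) and Nsa2 (0.726), and for Cck Rpl38 (0.645), Cdkn1b (0.615) and Ddost (0.597). None of these last 12 is in a region list, and neither Npy nor Sst was among the 3 nearest genes of the other.

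The genes that act beside the neuropeptides are set against the shares of all tested genes that passed in brain, 40.9% for CAST minus PWK, 52.4% for CAST minus WSB and 40.4% for PWK minus WSB. Of the receptors of these peptides 14 were tested, and 3 were higher and 4 lower in CAST than in PWK, 6 higher and 4 lower in CAST than in WSB, and 3 higher and 0 lower in PWK than in WSB. Their median differences were -0.070, 0.085 and 0.052. Npy1r, a receptor of neuropeptide Y, was lower in CAST than in PWK (-0.37, adjusted p = 1.2e-05) and than in WSB (-0.53, adjusted p = 6.1e-12). Cckbr, the main cholecystokinin receptor of brain, was higher in CAST than in PWK (0.49, adjusted p = 2.73e-07) and than in WSB (0.41, adjusted p = 1.58e-07). Oxtr, the oxytocin receptor, was lower in CAST than in PWK (-0.61, adjusted p = 4.24e-05). Sstr1, a somatostatin receptor, was lower in WSB than in both, at 0.55 for CAST minus WSB (adjusted p = 1.39e-11) and 0.59 for PWK minus WSB (adjusted p = 8.93e-11). Of the genes for peptide processing and granules 14 were tested, with 4 higher and 2 lower in CAST than in PWK, 4 and 5 in CAST than in WSB, and 3 and 5 in PWK than in WSB, at medians of 0.027, 0.036 and -0.024. Chgb, a granule protein, reached 0.87 for PWK minus WSB (adjusted p = 2.16e-20), and Chga, another, -0.56 (adjusted p = 1.83e-16). Of 11 tested genes for other neuropeptides 1 was higher and 2 lower in CAST than in PWK, 0 and 1 in CAST than in WSB, and 1 and 3 in PWK than in WSB.

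The immediate-early genes, which neurons switch on within minutes of strong activity, also differed between crosses, and their values stand here because neuropeptide genes can respond to activity. The mean of the measured list had a median of 8.26 in CAST, 9.15 in PWK and 8.57 in WSB, and lay between 9.17 and 9.35 in the F1 crosses. For CAST minus PWK 9 of the 10 tested genes were lower in CAST (40.9% of all tested genes differed, in either direction), and 8 were higher in PWK than in WSB (40.4%). The mid-parent value for CAST and PWK was exceeded by 9 (18.9%), that for CAST and WSB by 10 (37.1%) and that for PWK and WSB by 5 (10%). The deviations of the 9 neuropeptide genes had an r with this list between -0.151 and 0.180 over the 85 arrays, and in none of these 9 relations was the adjusted p under 0.05 (the lowest was 0.625). Its part in the differences between crosses was not tested.

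Outside brain 4 neuropeptide genes reached the test level in kidney, 5 in liver and 1 in lung. All 9 were higher in brain than in the mean of kidney, liver and lung, as were 36.2% of all 18820 genes, and the difference was 5.73 for Sst, 5.26 for Tac1, 4.98 for Cck, 3.93 for Penk, 3.88 for Npy, 2.59 for Vip, 2.09 for Pdyn, 0.62 for Oxt and 0.49 for Avp, with an SE between 0.026 and 0.044. Under repeated quantile normalisation of all arrays the values for Oxt and Avp were 0.392 and 0.285 (adjusted p of 1.94e-23 and 2.8e-18). For the 7 genes other than Avp and Oxt every brain array lay above every array of the other tissues. For Avp and Oxt the ranges of brain and liver overlapped, with Avp at 6.44, 7.01 and 8.24 in brain and at 6.47, 6.94 and 7.58 in liver. Penk kept high signals outside brain, at 8.24, 9.45 and 10.93 in kidney and at 7.64, 10.26 and 11.21 in lung, though not in liver, where it lay at 4.81, 6.04 and 7.43. Cck did so in kidney alone, at 8.20, 9.73 and 10.55, beside medians of 5.25 in liver and 4.62 in lung. Tac1, Pdyn and Vip had medians between 3.53 and 4.62 in these 3 tissues.

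**Figure D4:**
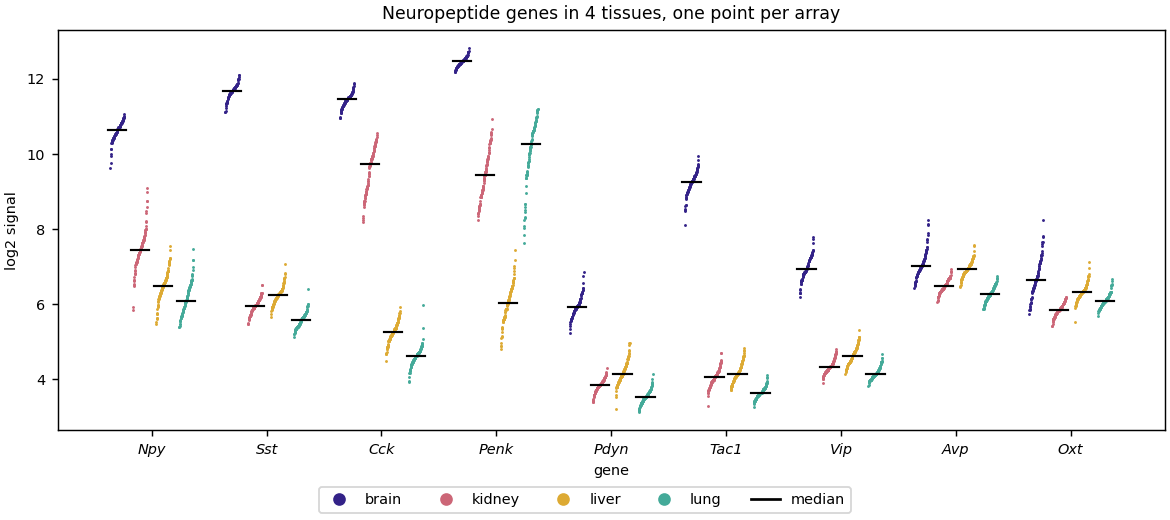
Level of each neuropeptide gene (log2 signal) (vertical axis) for each tissue, with 1 point per array and a line at the median. Penk stays above 7 in lung and kidney as well as brain, Cck is high in brain and kidney, and Sst and Tac1 are high in brain only.

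Lung Penk showed the widest strain difference of any neuropeptide gene tested. Among inbred lungs it lay at 10.63, 11.12 and 11.21 in CAST (n = 10), at 9.36, 9.73 and 10.28 in PWK (n = 12) and at 7.64, 8.31 and 8.68 in WSB (n = 12). The 3 ranges did not overlap. The difference was 1.28 ± 0.09 for CAST minus PWK (adjusted p = 9.54e-23; 62.7% of all genes tested in lung passed), 2.79 ± 0.09 for CAST minus WSB (adjusted p = 2.49e-45; 59.9%) and 1.51 ± 0.09 for PWK minus WSB (adjusted p = 2.29e-28; 61.4%). Penk also passed over all 9 crosses, as 93.9% of the tested genes did. The mean of each pair of reciprocal F1 crosses lay between its parents, nearer to the higher one. Penk had medians of 10.62 in CASTxWSB and 10.44 in WSBxCAST, and the F1 mean was 0.83 ± 0.06 above the mid-parent value (adjusted p = 1.12e-19; 30.5%). It was 0.32 ± 0.07 above for CAST and PWK (adjusted p = 0.000139; 19.5%) and 0.65 ± 0.06 above for PWK and WSB (adjusted p = 3.78e-14; 37.2%). Against the log2 of the mean linear level of both parents the excess was 0.242, 0.177 and 0.465.

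The lungs of the reciprocal crosses of PWK and WSB also differed in Penk. They lay at 9.68, 9.83 and 10.14 in PWKxWSB and at 8.96, 9.47 and 9.82 in WSBxPWK, with slight overlap. The difference was 0.48 ± 0.09 (adjusted p = 0.000383; 8.4% of all tested genes passed), and it missed the threshold when runs entered as a random block (adjusted p = 0.248). The effect of sex on lung Penk differed between crosses (adjusted p = 0.00812; 23.3% of tested genes), which missed the threshold with runs as a random block (adjusted p = 0.0623). Penk averaged 10.63 in females and 10.19 in males of WSBxCAST (n = 6 each), with no overlap, whereas in PWKxWSB it averaged 9.77 in 6 females and 10.04 in 4 males, again with no overlap. Heart muscle markers, which were listed after the data were seen, were present in lung at a mean level of 8.30 to 11.53, with medians of 9.96 in CAST, 9.003 in PWK and 10.39 in WSB. Within crosses Penk had an r of 0.336 with them (rho 0.352, adjusted p = 0.0244, r 0.348 without 2 arrays) and of 0.233 with the mesenchyme list (rho 0.236, adjusted p = 0.143), in a family of 16 relations in kidney and lung. By median, the heart markers were lowest in PWK and highest in WSB, and Penk was lowest in WSB and highest in CAST. The part of heart muscle or mesenchyme in the strain difference of Penk was not tested.

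In kidney Cck was high in PWK. It lay at 8.34, 8.91 and 9.33 in CAST (n = 11), at 9.75, 9.94 and 10.36 in PWK (n = 12) and at 8.20, 8.71 and 9.18 in WSB (n = 12). PWK did not overlap either other strain. The difference was -1.07 ± 0.10 for CAST minus PWK (adjusted p = 9.08e-16) and 1.26 ± 0.10 for PWK minus WSB (adjusted p = 5.31e-20). F1 kidneys with a PWK parent lay near PWK or above it, with medians of 10.09 in CASTxPWK, 10.02 in PWKxCAST, 10.26 in PWKxWSB and 9.89 in WSBxPWK. The F1 mean was above the mid-parent value by 0.56 ± 0.07 for CAST and PWK (adjusted p = 2.67e-09), by 0.31 ± 0.07 for CAST and WSB (adjusted p = 0.000476) and by 0.71 ± 0.07 for PWK and WSB (adjusted p = 3.72e-13). Cckar, the cholecystokinin receptor known from gut and pancreas, stood at a mean of 11.07 in kidney and was also highest in PWK, at -0.39 for CAST minus PWK (adjusted p = 4.01e-11) and 1.35 for PWK minus WSB (adjusted p = 4.65e-44).

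Kidney Penk was also highest in PWK, but lowest in CAST. It lay at 8.24, 8.86 and 8.99 in CAST, at 9.14, 10.02 and 10.56 in PWK and at 9.04, 9.37 and 10.34 in WSB. CAST lay wholly below both. The difference was -1.29 ± 0.12 for CAST minus PWK (adjusted p = 2.14e-17), -0.72 ± 0.12 for CAST minus WSB (adjusted p = 8.92e-08) and 0.57 ± 0.11 for PWK minus WSB (adjusted p = 7.5e-06). The F1 mean was above the mid-parent value by 0.44 ± 0.08 for PWK and WSB (adjusted p = 1.61e-05) and below it for CAST and WSB, by a difference of -0.31 ± 0.08 (adjusted p = 0.00168). For CAST and PWK it was 0.21 ± 0.08 (adjusted p = 0.0355), but missed the threshold with runs as a random block (adjusted p = 0.213), and the mean linear level of both parents left an excess of 0.074. PWKxWSB exceeded WSBxPWK by 0.43 ± 0.12 (adjusted p = 0.0468; 1% of all tested genes), which did not hold with runs as a random block (adjusted p = 0.994). Within crosses Cck and Penk moved together over the 102 kidneys (r = 0.536, rho 0.489, adjusted p = 8e-05, r 0.532 without 2 arrays).

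Npy in kidney moved with markers of adrenal gland and autonomic neurons. Npy is also made by sympathetic nerves and by the adrenal medulla. All 11 adrenal markers lay below the test level on average (Chga at 6.02 and Star at 5.63), but their mean ranged from 4.58 to 9.36 in females and from 4.47 to 9.06 in males, and that of the 9 measured autonomic markers from 5.16 to 7.58 in females and from 5.02 to 6.73 in males. Npy had an r of 0.860 with the autonomic list (rho 0.685, adjusted p = 8e-05, r 0.827 without 2 arrays) and of 0.655 with the adrenal list (rho 0.464, adjusted p = 0.00016, r 0.641 without 2 arrays), while Cck and Penk had an r between -0.038 and 0.152 with both. Both lists hold Dbh and Th, so their relations with Npy are not independent. By thresholds set after the data were seen (5.5 for the adrenal and 6 for the autonomic list), 22 of the 102 kidneys were high in either list, 18 from females and 4 from males. Npy lay at 6.72, 7.75 and 9.08 in these 22 and at 5.83, 7.41 and 8.21 in the other 80, and 8 of the 10 kidneys with most Npy were among the 22.

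Over all kidneys Npy was low in PWK, at 7.31, 7.58 and 8.42 in CAST, 5.83, 6.68 and 8.74 in PWK and 6.61, 7.36 and 9.08 in WSB. The ranges overlapped. The difference was 0.75 ± 0.19 for CAST minus PWK (adjusted p = 0.000458) and -0.65 ± 0.19 for PWK minus WSB (adjusted p = 0.00194). In the 80 kidneys left without the 22, Npy still moved with the autonomic list (r = 0.471, rho 0.356, adjusted p = 0.00234), at an r of 0.196 with the adrenal list (adjusted p = 0.121), and the part of either in the strain differences was not tested. In these 80 the difference for CAST minus PWK was 1.03 (adjusted p = 3.32e-10) and Npy also passed for CAST minus WSB (0.33, adjusted p = 0.0194) and above all 3 mid-parent values, by 0.299 to 0.380. Npy was 0.30 ± 0.09 higher in females than in males (adjusted p = 0.0218; 10.9% of all tested genes), at 6.54, 7.55 and 9.08 in 51 females and 5.83, 7.31 and 8.75 in 51 males. Without the 22 kidneys this was 0.18 (adjusted p = 0.064). The strain differences of Cck and Penk in kidney kept their calls without these arrays. The Penk difference from the mid-parent value for CAST and PWK did not (adjusted p = 0.0726), though it was 0.235 against 0.213 with all kidneys. That between PWKxWSB and WSBxPWK also lost its call, but was larger, at 0.617 against 0.433 with all kidneys. Replicate 3 was the only PWKxWSB female kept, so the part of the 22 kidneys in this reciprocal difference was not tested. The effect of sex on kidney Penk differed between crosses (adjusted p = 0.00401; 4.52% of all tested genes), at means of 10.31 in females and 9.68 in males of PWK and of 9.41 in females and 9.96 in males of CASTxPWK (n = 6 each). Of the 22 kidneys 4 came from PWK females, 0 from PWK males, 0 from CASTxPWK females and 1 from CASTxPWK males. Without the 22 the adjusted p was 0.253, with means of 10.15 in 2 females and 9.68 in 6 males of PWK. In the CASTxPWK kidneys kept, Penk averaged 9.41 in 6 females and 9.99 in 5 males, while PWK kept 2 of its 6 females. The part of the 22 kidneys in this sex-by-cross difference was not tested. Avp passed for CAST minus WSB alone, at 0.20 ± 0.08 (adjusted p = 0.0167), and missed the threshold with runs as a random block (adjusted p = 0.092) and without the 22 kidneys (adjusted p = 0.0932).

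Of the 4 genes tested in kidney 3 thus passed for CAST minus PWK (60.1% of all tested genes), 2 for CAST minus WSB (59.6%), 3 for PWK minus WSB (60.7%) and 3 over all crosses (91.1%). Against the mid-parent value 2 passed for each pair of strains (33.7% for CAST and PWK, 42.7% for CAST and WSB, 37.4% for PWK and WSB).

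**Figure D5:**
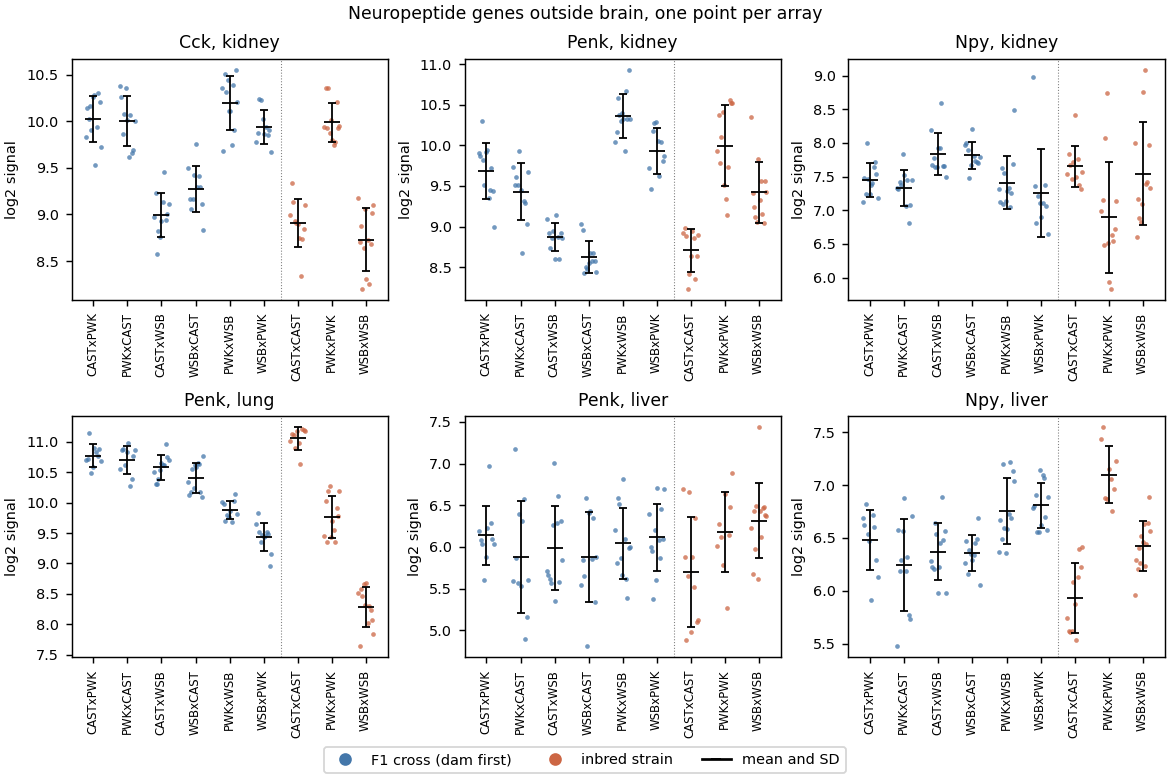
Levels of Cck, Penk and Npy in kidney, Penk in lung, and Penk and Npy in liver (log2 signal, vertical axis) by cross, with 1 point per array, F1 crosses left of inbred strains, and black lines for mean and SD. Lung Penk falls apart by strain with means of 11.05 in CAST, 9.77 in PWK and 8.28 in WSB, and kidney Cck is high in PWK and in every F1 cross with a PWK parent.

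In liver 5 neuropeptide genes were tested, with mean signals between 6.03 and 6.95, against a test level of 5.96. Npy lay at 5.53, 5.87 and 6.41 in CAST (n = 11), at 6.76, 7.06 and 7.54 in PWK (n = 9) and at 5.96, 6.44 and 6.89 in WSB (n = 13). PWK was high, above every CAST liver and above all but the upper end of WSB. The difference was -1.18 ± 0.13 for CAST minus PWK (adjusted p = 1.79e-13; 50.1% of all genes tested in liver), -0.51 ± 0.12 for CAST minus WSB (adjusted p = 0.000103; 57%) and 0.67 ± 0.12 for PWK minus WSB (adjusted p = 2.05e-06; 55.3%). Npy alone of the 5 passed over all crosses (85.8% of all tested genes). Penk differed for CAST minus WSB, at -0.59 ± 0.19 (adjusted p = 0.00649), and was higher in females than in males by 0.32 ± 0.10 (adjusted p = 0.0124; 13.8% of all tested genes), with 4.89, 6.27 and 7.01 in females and 4.81, 5.82 and 7.43 in males. The sex difference missed the threshold with runs as a random block (adjusted p = 0.0896). Avp was below the mid-parent value for CAST and WSB by a difference of -0.16 ± 0.06 (adjusted p = 0.0466; 25.3%), which did not hold with runs as a random block (adjusted p = 0.285). Sst and Oxt passed in none of these liver contrasts.

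Strain differences of Npy, Cck and Penk changed in size or direction between tissues, and the difference between tissues was tested with the animal as a block, over all 18820 genes. Cck was lower in CAST than in PWK in both brain and kidney, but by less in brain, with a difference of differences of 0.85 ± 0.17 (adjusted p = 1.3e-05; 20.4% of all genes). For PWK minus WSB it was positive in both tissues and again smaller in brain, by -0.91 (adjusted p = 4.88e-07; 25.6%). Npy was higher in CAST than in PWK in brain and kidney and lower in liver, and brain minus liver gave 1.73 ± 0.24 (adjusted p = 2.64e-10; 26.7%) and kidney minus liver 1.93 (adjusted p = 4.65e-16; 29.1%). For PWK minus WSB, Npy was negative in brain and kidney and positive in liver, and the values were -1.36 for brain minus liver (adjusted p = 1.83e-07; 27.7%) and -1.33 for kidney minus liver (adjusted p = 7.42e-09; 30.9%). The same cluster of probes therefore read low in PWK brain and kidney and high in PWK liver.

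The direction of the Penk difference varied between tissues. For CAST minus WSB it was positive in lung and negative in brain, kidney and liver, with -3.00 for brain minus lung (adjusted p = 6.66e-35; 31.6%), -3.49 for kidney minus lung (adjusted p = 1.81e-48; 29.2%) and 3.39 for lung minus liver (adjusted p = 4.53e-47; 36.7%). For CAST minus PWK, kidney minus lung gave -2.58 (adjusted p = 3.7e-30; 31.8%). For PWK minus WSB, Penk was negative in brain and positive in kidney and lung, at -0.84 for brain minus kidney (adjusted p = 0.000942; 25.6%), -1.75 for brain minus lung (adjusted p = 2.76e-13; 24.4%) and -0.92 for kidney minus lung (adjusted p = 1.89e-05; 29.5%). The Penk probes thus read highest in WSB brain, PWK kidney and CAST lung.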

How the data were processed

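The deposited values are log2 signals per transcript cluster, made by the authors with RMA and Affymetrix Expression Console, per the submitters' processing notes, which give no versions. The sources used here do not say whether the 4 tissues were normalised jointly. The table held 35556 clusters on 386 arrays with 0 missing values, no 2 arrays were identical, and their number limits the precision. Clusters with 1 gene symbol in the platform annotation (21218) gave 18820 genes, the cluster with the highest mean being kept where a symbol had several. Group, sex and animal come from the labels, which name a separate animal for each array of a tissue.

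In each tissue limma 3.58.1 in R 4.3.3 fitted 18 cross-by-sex means (eBayes with a trend) to the 11292 genes reaching the 40th percentile of mean level, with Benjamini-Hochberg adjustment per contrast, and genes under 0.05 are said to pass. Tissue contrasts used 36 cross-by-tissue means and all 18820 genes, and strain-by-tissue contrasts had the animal as a block. Correlations used deviations from cross-by-sex means and 100000 two-sided permutations within cross and sex. On simulated data for brain CAST minus PWK limma called 100 of the 100 genes shifted by 1 and 94 of the 100 shifted by 0.5, among 11292 genes. The shifted genes were drawn at random, so these shares do not describe Vip, Tac1, Avp and Oxt. Their SE for this contrast lay between 0.164 and 0.263.

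The genes and lists were chosen with earlier results of these data known. The text names the 10 genes, up to 4 list genes with the smallest p per contrast (for lists given by level, the 2 highest), and for each neuropeptide gene the 3 tested genes with the highest r. Alternatives concerned the filter, normalisation, model, weights, single arrays, and animal or run as a block. Tests of kidney, liver and lung contrasts beyond cross and sex, of strain by tissue, without kidneys high in adrenal or autonomic markers, without the first component, the immediate-early relations, the relations in kidney and lung and the linear mid-parent were added after seeing the data.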

Additional observations from a re-analysis of the deposited data

Results flagged for a closer look

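Of 66 groups of 4 to 10 arrays checked with Dixon's test, 7 held 1 array far from the others, and chance alone gives about 1 in 20 groups. In brain, Cck was low in CASTxPWK replicate 8 (10.977, others 11.469 to 11.8) and in PWKxWSB replicate 5 (11.29, others 11.486 to 11.632). Penk was high in PWKxPWK brain replicate 5, at 12.393 with the others between 12.3 and 12.324, and Oxt was high in PWKxWSB brain replicate 1, at 7.661 with the others between 6.138 and 6.82. In kidney, Npy was high in WSBxPWK replicate 1 (8.982, others 6.641 to 7.375), which was among the 22 kidneys high in adrenal or autonomic markers. In liver, Penk was high in CASTxPWK replicate 7 (6.973, others 5.597 to 6.284) and Oxt low in CASTxPWK replicate 1 (5.514, others 6.197 to 6.753).

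The sex difference of Penk varied between crosses in kidney (adjusted p = 0.00401) and lung (adjusted p = 0.00812), in limma's test of sex by cross. The adjusted p was 0.253 in kidney without the 22 kidneys and 0.0623 in lung with runs as a random block. In 13 cases a gene passed for a strain contrast in 2 tissues and its differences differed between these tissues, with the animal as a block. The difference of differences for Cck was 0.848 (CAST minus PWK) and -0.912 (PWK minus WSB), both for brain minus kidney. For Npy it was 1.731 (CAST minus PWK, brain minus liver), 1.925 (CAST minus PWK, kidney minus liver), -1.363 (PWK minus WSB, brain minus liver) and -1.327 (PWK minus WSB, kidney minus liver). For Penk it was -2.577 (CAST minus PWK, kidney minus lung) and, for CAST minus WSB, -2.999 (brain minus lung), -3.493 (kidney minus lung) and 3.39 (lung minus liver). For PWK minus WSB, Penk gave -0.839 (brain minus kidney), -1.755 (brain minus lung) and -0.916 (kidney minus lung).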

How the results depend on the processing

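In brain, array weights gave 1 gene for CASTxWSB minus WSBxCAST (Sst), and for the mid-parent value of CAST and WSB they gave 3 genes and the 60th percentile filter 0, since Vip is then not tested. Leaving out 1 array at a time gave 1 to 2 genes for CAST minus PWK, 1 to 3 for the mid-parent value of CAST and WSB and 5 to 7 for the test over all crosses, where Avp passed without any 1 of 12 arrays (adjusted p from 0.00984 to 0.0474) and Oxt without CASTxPWK replicate 4 (adjusted p = 0.0113). In kidney, CAST minus WSB gave 1 gene under repeated quantile normalisation and with runs as a random block. PWKxWSB minus WSBxPWK gave 0 with no filter and with runs as a block. Without the 22 kidneys Penk lost its call there at a larger difference of 0.617, with replicate 3 the only PWKxWSB female kept. The mid-parent value of CAST and PWK gave 1 gene in kidney with no filter or with runs as a block, the sex contrast 2 with no filter and 0 without the 22 kidneys, and the test of sex by cross 0 without the 22 kidneys. In liver, the mid-parent value of CAST and WSB gave 0 with no filter or with runs as a block, and the sex contrast 0 with runs as a block. In lung, no filter gave 4 genes for CAST minus WSB, 2 for PWK minus WSB, 2 for PWKxWSB minus WSBxPWK, 2 for each of the mid-parent values of CAST and WSB and of PWK and WSB, and 5 over all crosses, because more genes are tested, and runs as a block gave 0 for PWKxWSB minus WSBxPWK and for the test of sex by cross. A 40th percentile filter over all arrays left 5 genes tested, of which 5 passed in each of the 4 tissue contrasts. Member pairs that passed numbered 0 in inbred brains alone, where fewer arrays enter, and 5 without the first component. Where no reason is given, the cause was not tested.

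Values that turned their direction were Tac1 for kidney minus liver, 0.080 under repeated quantile normalisation, and in inbred brains alone the r of Npy with Avp (-0.116), of Npy with Oxt (-0.137) and of Pdyn with Tac1 (-0.007). The numbers of replicates were given in record order and pair nothing, but the labels name the animal, so the tissue contrasts were refitted with the animal as a block. All 9 genes again passed for brain minus the mean of the other tissues, and no call changed.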
